A study of Mus musculus with 8 samples.

Results

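The microRNA (miRNA) precursors that lie inside the Hox gene clusters of the mouse are mmu-mir-10a, mmu-mir-10b, mmu-mir-196a-1, mmu-mir-196a-2, mmu-mir-196b and mmu-mir-615, written below without the prefix for the species. They were selected by name, and all 6 were found among the 1181 precursors for which small RNA values of myoblasts were deposited. Myoblasts are the dividing muscle precursor cells that fuse into fibres. The libraries came from C57BL/6J mice, 4 called old and 4 called young in the labels, with 1 library for each mouse number the labels give and no treatment or transgene named in either group. The labels used here call both groups myoblasts and name neither the muscles they were taken from nor an age in months. Values are log2 abundances as deposited, floored at 0, and step as reads do once divided by precursor length and by library size. Libraries are called old 1 to old 4 and young 1 to young 4 after the numbers of the mice, and group values are means ± SD over 4 libraries.

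Hox genes encode transcription factors that give cells along the body axis and the limbs their regional identity, and their order on the chromosome follows the order of their expression domains from head to tail. The miRNAs between them are expressed in domains like those of their neighbours and act on messages of Hox genes among others: miR-10 lies beside the group of Hoxb4 and Hoxd4, which reaches far forward, and miR-196 beside the group of Hoxa9, Hoxb9 and Hoxc9, which is restricted to the trunk and tail side. Adult cells, those of muscle among them, can keep part of the Hox pattern of the place they come from, so levels of these miRNAs may differ between cells of different muscles. Since the source muscles are not named, a positional reading of the values below was not tested.

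The positions and sequences set out which of these precursors can be told apart by their reads. Positions are of mm10 (GRCm38), and sequences are those of RefSeq for GRCm38.p6; the mature sequences of all 6 precursors were matched by symbol. In the Hoxa cluster, mir-196b lies on chromosome 6 (52230081 to 52230165, minus strand), 2.3 kb after the coding sequence of Hoxa10 and 4.0 kb before that of Hoxa9. It falls within an exon of 2 of the 3 Hoxa9 transcripts that span it in GENCODE, none of them with a coding sequence or untranslated region there. In the Hoxb cluster on chromosome 11, mir-196a-1 (96265164 to 96265265, plus strand) overlaps no other GENCODE gene and lies 6.3 kb before Hoxb9. On the same strand, 51.9 kb further on, mir-10a (96317165 to 96317274) lies 1.5 kb before Hoxb4 and likewise overlaps no other GENCODE gene. In the Hoxc cluster on chromosome 15, mir-196a-2 (102973350 to 102973434, plus strand) lies 2.3 kb after Hoxc10 and 8.2 kb before Hoxc9, in an intron of a long Hoxc5 transcript. In the same cluster, 41.5 kb further on, mir-615 (103014910 to 103015001, plus strand) lies in the intron of Hoxc5. In the Hoxd cluster on chromosome 2, mir-10b (74726070 to 74726137, plus strand) lies 1.1 kb before the coding sequence of Hoxd4, in introns of Hoxd4 and Hoxd3 transcripts. The mature forms are shown because reads of near-identical products limit what can be separated, with the seed (bases 2 to 8, the part that pairs with targets) in capitals:
miR-10a-5p: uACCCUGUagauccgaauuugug
miR-10b-5p: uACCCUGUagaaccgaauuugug
miR-196a-5p: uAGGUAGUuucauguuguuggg
miR-196b-5p: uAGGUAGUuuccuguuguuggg
miR-615-3p: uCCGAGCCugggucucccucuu
miR-615-5p: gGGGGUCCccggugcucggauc

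miR-10a-5p and miR-10b-5p share their seed and differ by 1 base of 23, U12A, counted from the 5′ end of miR-10a-5p. miR-196a-5p and miR-196b-5p likewise share their seed and differ by 1 base of 22, A12C. mir-196a-1 and mir-196a-2 give the same mature miR-196a-5p, so that only their other arms and flanks are distinct. Among 1738 mature entries in the RefSeq table, the seed ACCCUGU belonged to miR-10a-5p and miR-10b-5p only, the seed AGGUAGU to miR-196a-5p and miR-196b-5p only, and the seed CCGAGCC to miR-615-3p only. The values are per precursor, and do not tell its 2 arms apart.

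**Figure D1:**
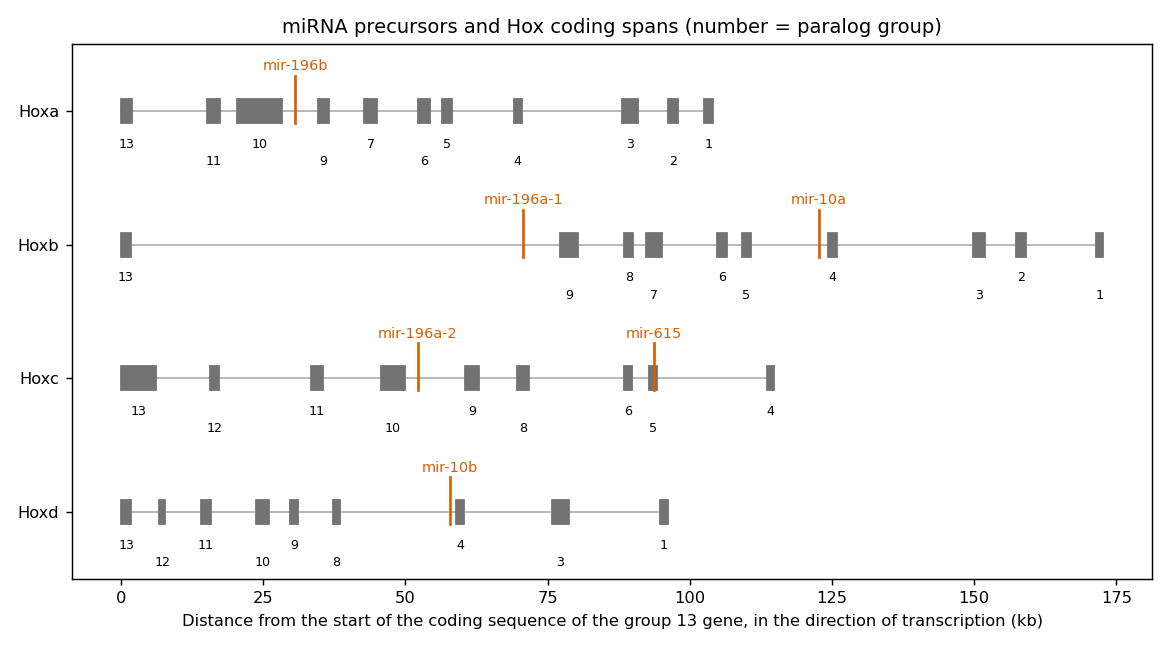
Positions of the 6 miRNA precursors (orange) and the coding spans of the Hox genes (grey boxes, numbered by paralog group) in each of the Hoxa, Hoxb, Hoxc and Hoxd clusters. The horizontal axis is the distance in kb from the first coding base of the Hox gene at the left end, in the direction of transcription; the mir-196 precursors sit between groups 10 and 9 or before group 9, and the mir-10 precursors just before group 4.

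All 6 precursors were above 0 in all 8 libraries and passed the filter for testing (4 or more libraries with a linear value of 10 or higher), as did 359 precursors in total. The low values of the file step in a way that gives library sizes of 25.1 to 39.5 M reads. Every member was then backed by at least 55.9 recovered reads in every library. For 56 reads the exact 95% Poisson interval is 42.3 to 72.7, or -0.40 to 0.38 on the log2 scale, which covers counting error only. Over 315 compared precursors, with the 38 of the imprinted Dlk1-Dio3 region and the Hox cluster members set aside, the first principal component (37.1% of the variance) placed young 4 (a score of 17.1) and old 4 (10.9) far from the rest (-9.4 to 0.0). Several results of the members are therefore also given without these libraries. Median-ratio factors, which estimate by how much the bulk of precursors is shifted in a library, were 0.56 in young 4 and 0.34 in old 4 against -0.35 to 0.07 in the others (log2).

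mir-10b, the miRNA of the Hoxd cluster, was the most variable of all 359 compared precursors, and the variation lay within both age groups. Its log2 values were 8.32, 10.93, 10.27 and 14.21 in old 1 to old 4. In young 1 to young 4 they were 4.78, 7.29, 12.82 and 13.92. High values were thus found in old 4, young 4 and young 3 and the lowest in young 1, and the groups overlapped over most of their range. The span from young 1 to old 4 was 9.43 log2 units, or 689.8-fold. The SD over the 8 libraries was 3.35, the largest of the 359, against a median of 0.64 and a second largest of 2.75. In recovered reads, mir-10b went from 55.9 in young 1 to 32366 in old 4 and 41584 in young 4. It ranked 254th by abundance in young 1 and 42nd in old 4 among all precursors. The spread did not rest on the libraries that stood apart: without old 4 and young 4 the values still ran from 4.78 to 12.82, a 263.2-fold span with an SD of 2.87 that ranked 3rd of 359. After median-ratio scaling the range over all 8 libraries was 5.13 to 13.87.

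mir-10a, its counterpart in the Hoxb cluster, also varied widely but was high in different libraries. Its log2 values were 4.58, 5.70, 9.88 and 5.90 in old 1 to old 4. They were 5.75, 10.44, 7.44 and 6.35 in young 1 to young 4. Old 3 and young 2 were high, with 1 such library in each age group, and the other 6 lay between 4.58 and 7.44. The span was 5.86 log2 units (58.1-fold) from old 1 to young 2, and the SD of 2.11 ranked 20th of 359. The extremes, old 1 at 73.5 and young 2 at 4908 recovered reads, are both among the 6 libraries that did not stand apart, so that the span was the same without old 4 and young 4.

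**Figure D2:**
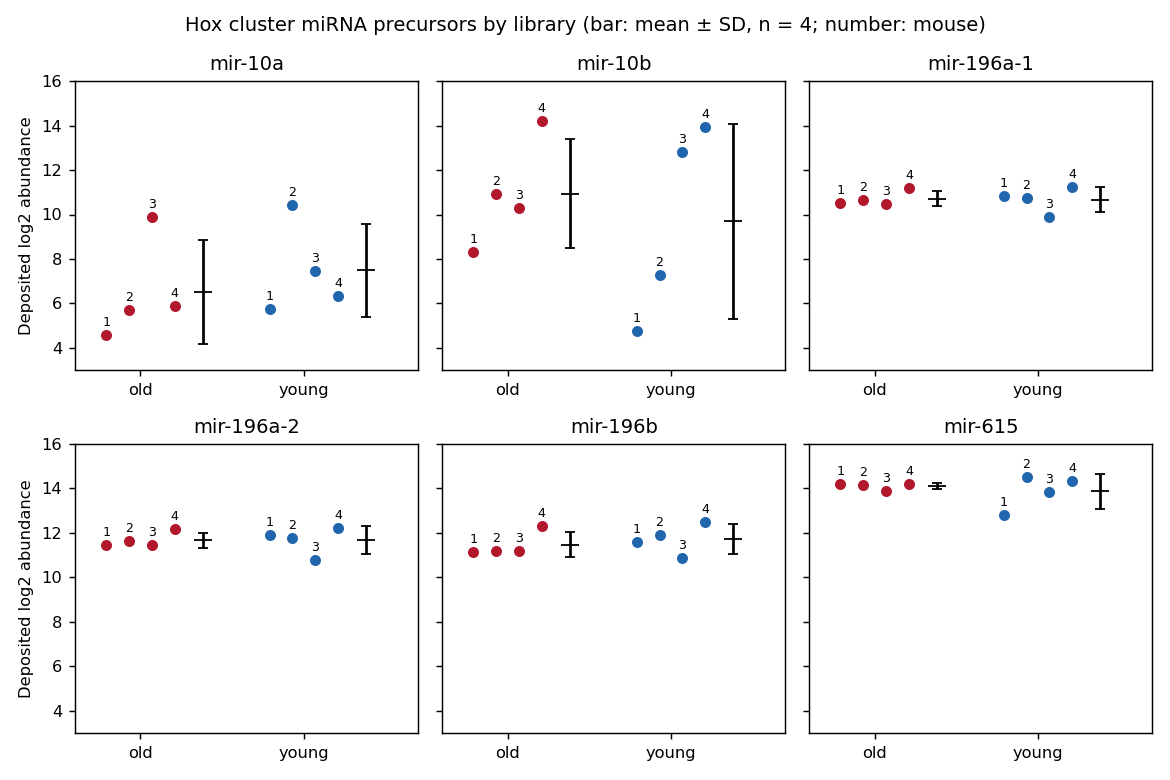
Deposited log2 abundance of each of the 6 precursors in every library (red, old; blue, young; the number is that of the mouse), with mean ± SD beside each group of 4. mir-10b runs from 4.78 to 14.21 and mir-10a from 4.58 to 10.44 with both groups spread out, whereas the mir-196 precursors stay between 9.88 and 12.50 and mir-615 between 12.78 and 14.50.

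The balance between both mir-10 precursors changed from library to library. Such a difference within a library does not move with the scaling of that library. mir-10b exceeded mir-10a by 3.74, 5.23, 0.39 and 8.31 log2 units in old 1 to old 4. In young 1 to young 4 the difference was -0.97, -3.15, 5.38 and 7.57. Values near or below 0 were seen in old 3, young 1 and young 2, and mir-10b was the higher precursor by at least 3.74 in the other 5. Expressed as reads of the pair, mir-10b held 6.51% in young 2, 24.0% in young 1, 44.8% in old 3, 89.2% in old 1 and 95.9% to 99.5% in old 2, old 4, young 3 and young 4. Old and young libraries did not differ in this balance beyond their spread (4.42 ± 3.29 against 2.21 ± 5.09, SD, n = 4 each; two-sided exact permutation p = 0.514, adjusted p = 0.571 over 3 such differences). Across the 8 libraries the precursors did not run in parallel (Pearson r = -0.10, exact permutation p = 0.803; Spearman rho = 0.02, p = 0.977; adjusted p = 0.927 and 0.977 over the 15 pairs of members). Without old 3 and young 2, the libraries farthest from the median of mir-10a, r was 0.50. Where mir-10b was highest, mir-10a was a small part of the pair, with 0.510 reads per 100 mir-10b reads in old 4 and 0.851 in young 4. Since 1 base separates their mature forms, reads of one could be listed under the other at such shares; this was not tested.

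Taken in place of the total of the seed ACCCUGU, the summed linear value of mir-10a and mir-10b still spanned 233.9-fold. It ran from a log2 value of 6.35 in young 1 to 14.21 in old 4. This sum adds values divided by precursor length (110 nt for mir-10a, 68 nt for mir-10b), so a mir-10a read counted for less. It also holds reads of both arms, and the other arms have different seeds. Recovered reads of both precursors were 233 of 29.9 M in young 1 and 32530 of 25.1 M in old 4, a narrower span. The group means of this sum were 11.17 ± 2.37 (old) and 10.93 ± 3.36 (young; SD, n = 4 each). Young 2, low in mir-10b, reached 10.59 through mir-10a, close to old 2 at 10.97, which reached it through mir-10b. Young 1 was low in both precursors.

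**Figure D3:**
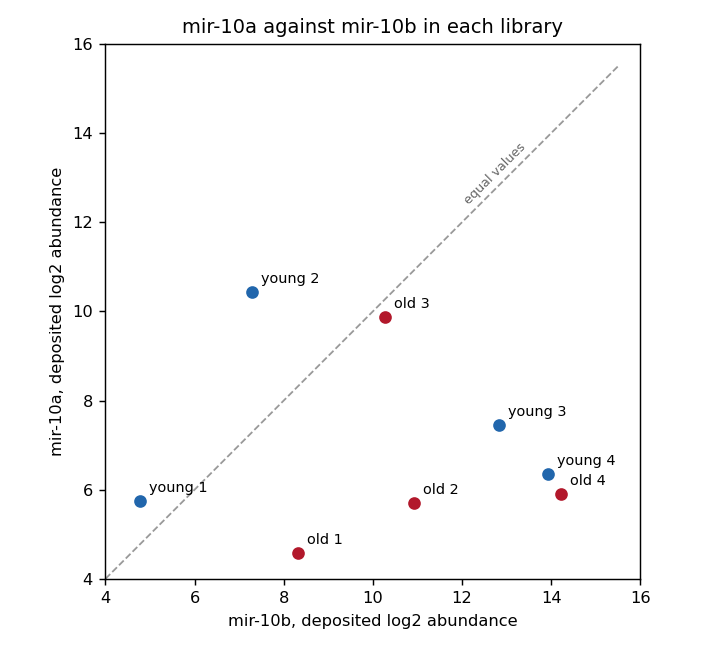
Deposited log2 abundance of mir-10a (vertical axis) against mir-10b (horizontal axis) in each of the 8 libraries (red, old; blue, young), with a dashed line where both are equal. Young 1 and young 2 lie above the line and old 3 just below it, while old 4 and young 4 lie at the far right with mir-10b higher by 8.31 and 7.57 log2 units.

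The miR-196 precursors, which come from the posterior side of the Hoxa, Hoxb and Hoxc clusters, were present at a steady level in every library. mir-196a-2, of the Hoxc cluster, measured 11.45, 11.62, 11.44 and 12.16 in the old libraries by number. Its young values were 11.89, 11.77, 10.79 and 12.23. mir-196b, of the Hoxa cluster, stood at 11.14, 11.19, 11.19 and 12.32 in old mice and at 11.60, 11.89, 10.86 and 12.50 in young ones, in the same order. For both, young 4 and old 4 were highest and young 3 was lowest, and the age groups overlapped. mir-196a-1, of the Hoxb cluster, ran from 9.88 in young 3 to 11.22 in young 4, with a median of 10.71. The spans were 1.34, 1.44 and 1.64 log2 units for mir-196a-1, mir-196a-2 and mir-196b. Their SDs of 0.43, 0.46 and 0.60 lay below the median of 0.64 and ranked 306th, 285th and 199th of 359. Without old 4 and young 4 the highest values were 10.82, 11.89 and 11.89 and the spans 0.94, 1.10 and 1.03.

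The separate levels of mir-196a-1 and mir-196a-2 cannot be read from the file with certainty, because both give miR-196a-5p. mir-196a-2 was higher in each library by 0.91 to 1.07 log2 units, of which the ratio of their lengths (102 and 85 nt) gives 0.26. The remaining 0.65 to 0.81 means that more reads, of either arm, were listed under mir-196a-2. The placement of reads with several origins is not stated in the labels. mir-196b and mir-196a-2 stood near each other, with a difference of -0.31, -0.43, -0.25 and 0.16 in the old libraries by number, against -0.29, 0.12, 0.07 and 0.27 in the young. This difference did not separate the age groups (-0.21 ± 0.26 against 0.04 ± 0.24, SD, n = 4 each; two-sided exact permutation p = 0.257, adjusted p = 0.571).

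Across clusters the miR-196 precursors rose and fell together in the deposited values, while members of 1 cluster from different families did not. mir-196a-2 and mir-196b, on chromosomes 15 and 6, had a Pearson r of 0.91 over the 8 libraries (exact permutation p = 0.0008, adjusted p = 0.0042) and a Spearman rho of 0.93 (p = 0.0017, adjusted p = 0.0084; 15 pairs of members). Without young 3 and young 4, the libraries farthest from the median of mir-196a-2, r was 0.92. Without old 4 and young 4 it was 0.83. All precursors of a library share its scaling, and after median-ratio scaling r was 0.74 (exact permutation p = 0.0110, adjusted p = 0.0828), so that the adjusted call was lost. mir-10a and mir-196a-1, in the same Hoxb cluster, gave r = -0.24 (exact permutation p = 0.570, adjusted p = 0.927). mir-196a-2 and mir-615, in the same Hoxc cluster, gave r = 0.12 (exact permutation p = 0.757, adjusted p = 0.927). Spearman's rho was -0.12 (p = 0.793) and 0.50 (p = 0.216) for these pairs, and r was -0.35 without old 3 and young 2 and -0.15 without young 3 and young 4. That the r of 1 pair differs from that of another was not tested. A high r was not particular to the miR-196 precursors, since mir-196b had a higher r with mir-7a-2 (0.98) and mir-30c-2 (0.95) than with mir-196a-2. Because 1 base separates miR-196a-5p from miR-196b-5p, reads of one could be listed under the other. The part of such reads in these r was not tested.

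Setting the forward position of miR-10 against the rear position of miR-196, mir-10b minus mir-196b was -2.82, -0.26, -0.92 and 1.89 log2 units in the old libraries by number. In the young libraries it was -6.82, -4.60, 1.96 and 1.42. mir-10b was thus the higher of both in 3 libraries of mixed age and the lower in 5. The group means were -0.53 ± 1.94 (old) and -2.01 ± 4.37 (young; n = 4 each, two-sided exact permutation p = 0.571, adjusted p = 0.571), and without young 1 the old minus young difference turned from 1.48 to -0.12. Almost all of the spread came from mir-10b, whose SD of 3.35 stands beside 0.60 for mir-196b. The Pearson r of mir-10b with mir-196b was 0.29 over the 8 libraries and -0.18 after median-ratio scaling. With mir-196a-2 it was 0.06 (exact permutation p = 0.895) and -0.58 (exact permutation p = 0.134) in the same order. Without old 4 and young 4 the r with mir-196a-2 was -0.83, which was not tested. Without old 4 and young 1 it was 0.02.

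mir-615, processed from the intron of Hoxc5, was the most abundant member of the group and ranked 32nd of all precursors by its mean. By mouse number it was at 14.19, 14.14, 13.89 and 14.20 in the old libraries and at 12.78, 14.50, 13.82 and 14.33 in the young. The old libraries lay within 0.31 of each other, inside the range of the young ones, and young 1 was the lowest library. Young 1 was also the lowest in mir-10b, but not in the miR-196 precursors, where it was the 3rd highest of the 8 in mir-196a-1 and mir-196a-2. The SD of mir-615 over the 8 libraries was 0.53, ranking 241st of 359.

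**Figure D4:**
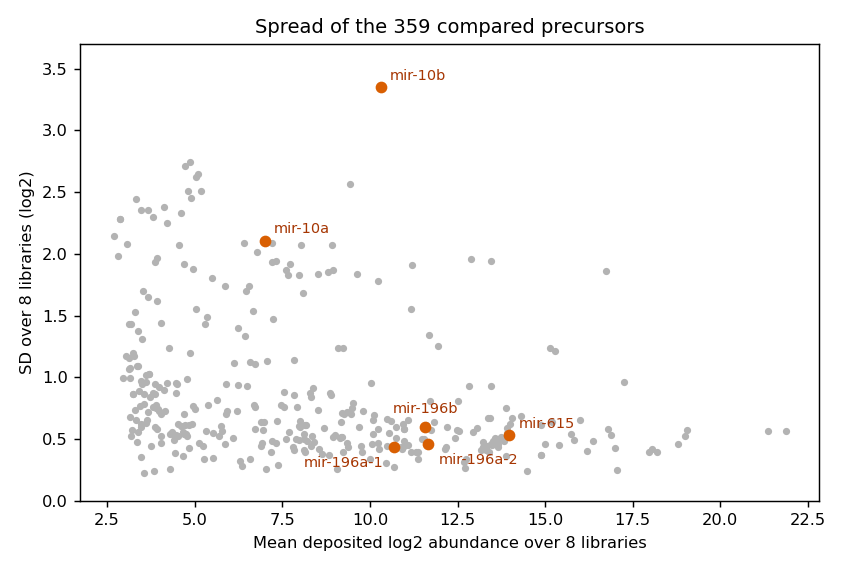
SD over the 8 libraries (vertical axis, log2) against mean deposited log2 abundance (horizontal axis) for each of the 359 compared precursors (grey), with the Hox cluster members in orange. mir-10b has the largest SD, 3.35, and mir-10a lies at 2.11, while mir-196a-1, mir-196a-2, mir-196b and mir-615 lie at 0.43 to 0.60.

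By mean over the 8 libraries the order on the deposited per-length scale was mir-615, mir-196a-2, mir-196b, mir-196a-1, mir-10b and mir-10a. mir-615 was above each mir-196 precursor in every library. mir-196b minus mir-196a-2 ran from -0.43 to 0.27, so neither was the higher in every library, and their levels were not tested against each other. mir-10b had no fixed place, lying above mir-196b in 3 libraries and below mir-10a in 2. In old 4 it stood level with mir-615 (14.21 against 14.20).

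None of the 6 members differed between old and young myoblasts by more than the spread between libraries. Across all 359 precursors 0 were called in limma at an adjusted p of 0.05 (0.0%), and 4 (1.11%) had an unadjusted p under 0.05; neither set held a Hox cluster member. The groups of 3 precursors (0.836%) did not overlap, and all 6 members overlapped. mir-10b averaged 10.93 ± 2.45 across old and 9.70 ± 4.38 across young mice (SD, n = 4 each). The old minus young difference was 1.23 ± 2.01 (SE; 95% interval -3.28 to 5.74; adjusted p = 0.995 in limma, exact permutation p = 0.657). Without young 1 this difference was -0.41 and without young 4 it was 2.64. mir-10a averaged 6.52 ± 2.32 and 7.50 ± 2.08, a difference of -0.98 with a 95% interval from -3.85 to 1.89 (limma adjusted p = 0.995, exact permutation p = 0.486). It was -2.10 without old 3 and 0.00 without young 2. These intervals are wide, and a several-fold difference in either direction lies within them.

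For the steady members the intervals were narrower. mir-196a-1 averaged 10.71 ± 0.34 across old and 10.67 ± 0.56 across young mice (SD, n = 4 each), a difference of 0.05 with a 95% interval from -0.78 to 0.87. mir-196a-2 was at 11.67 ± 0.34 and 11.67 ± 0.62, with an interval from -0.84 to 0.84. mir-196b was at 11.46 ± 0.57 and 11.71 ± 0.68, a difference of -0.25 with an interval from -1.22 to 0.72. mir-615 was at 14.11 ± 0.15 and 13.86 ± 0.77, a difference of 0.25 with an interval from -0.63 to 1.12. Their adjusted p was 0.995 in limma for each, and the exact permutation p ran from 0.60 for mir-196b to 1.0 for mir-196a-2. The sign of the mir-196a-2 difference turned with scaling (0.03 after median-ratio, 0.076 after TMM scaling). The intervals of these 4 members thus reached no further than -1.22 and 1.12 log2 units. The exact test on 4 against 4 libraries cannot give a p below 0.0286.

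**Figure D5:**
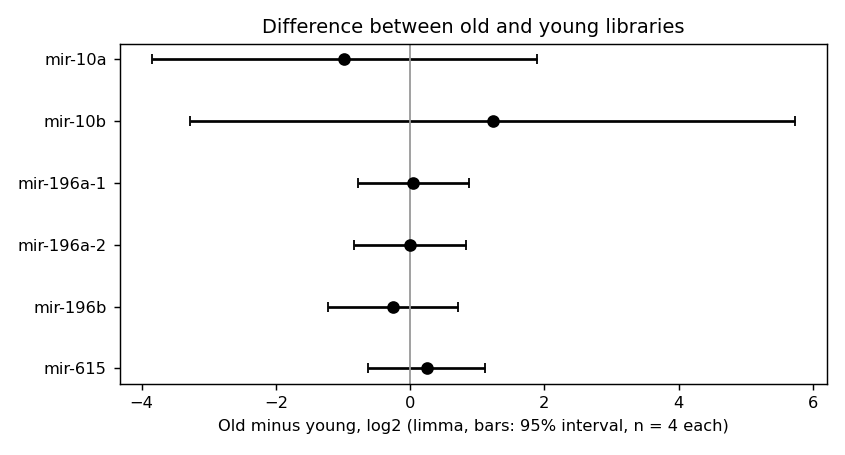
Old minus young difference in deposited log2 abundance for each of the 6 precursors (points; bars, 95% intervals from limma; n = 4 libraries each). All intervals include 0, and those of mir-10a (-3.85 to 1.89) and mir-10b (-3.28 to 5.74) are several times wider than the others.

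The nearest relatives of miR-10 by sequence varied no more than the median precursor. miR-99a, miR-99b and miR-100 lie outside the Hox clusters and start with a related but different seed:
miR-99a-5p: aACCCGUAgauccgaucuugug
miR-99b-5p: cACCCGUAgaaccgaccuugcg
miR-100-5p: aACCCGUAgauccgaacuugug
mir-99b, the most abundant, ran from 18.36 in young 2 to 20.02 in old 4, mir-100 from 13.93 in young 3 to 15.86 in old 4, and mir-99a from 10.98 in old 2 to 12.71 in old 4. Their SDs over the 8 libraries were 0.58, 0.61 and 0.61, against 3.35 for mir-10b. Of these 3 relatives 0 were called between old and young libraries in limma, with differences from 0.10 to 0.25 (median 0.22, beside -0.05 over all 359). The let-7 family, whose seed overlaps that of miR-196 when shifted by 1 base (let-7a-5p: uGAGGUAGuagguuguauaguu), had 12 of 12 listed precursors compared and 0 called. Their differences ran from -0.23 to 0.36 with a median of 0.10, and 8 were positive.

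The precursors most like each member over the 8 libraries were named by the highest Pearson r, as a description of 8 points that share their scaling. For mir-10b these were let-7d (0.89), let-7a-1, mir-324 and let-7a-2 (0.87 each) and let-7c-2 (0.86). let-7a-1 and let-7a-2 ran in parallel (13.39 and 13.36 in old 1, 14.23 and 14.21 in young 4), so their r are not separate observations. The let-7 precursors are expressed broadly and rise in differentiated cells; their SDs here were 0.36 to 0.46, so they moved over a fraction of the span of mir-10b. For mir-10a they were mir-1968 (0.90), mir-138-2 (0.83), mir-7068 (0.75), mir-3071 and mir-7015 (0.70 each). For mir-196a-1 and mir-196a-2, besides each other and mir-196b, they included mir-191 (0.97 and 0.96) and mir-146b (0.91 each), with mir-100 (0.91) for the first and mir-1943 (0.89) for the second. For mir-196b they were mir-7a-2 (0.98) and the miR-30 precursors mir-30c-2, mir-30e, mir-30f and mir-30c-1 (0.95 each). mir-30e and mir-30f had the same mean (10.97) and SD (0.58), so they were not taken as separate observations. For mir-615 they were mir-1231 (0.95), mir-339 (0.93), mir-7666 (0.92), mir-1843b and mir-6948 (0.91 each). No Hox cluster miRNA was among the 5 most alike of mir-10a, mir-10b, mir-196b or mir-615.

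Markers of the cells in the libraries were set beside the mir-10 values. The muscle list had 7 of 7 precursors found, 5 of them compared. Its summed level was 21.11 to 21.76 in old and 20.33 to 22.14 in young libraries, nearly all of it mir-486 (20.29 to 22.11). mir-206, specific to skeletal muscle, was at 14.78 or above in all 8. mir-1a-1 and mir-1a-2, which were not compared, reached at most 3.22 and 2.47 and were at 0 in young 4. For the 5 compared, r with mir-10b ran from -0.515 (mir-486) to 0.106 (mir-133b). Young 4, high in mir-10b, was the lowest library in mir-486, mir-206, mir-133a-1 and mir-133a-2. Young 3, also high in mir-10b, was the highest in mir-206 (16.52), mir-133a-1 (14.92) and mir-133a-2 (14.29). Old 4, where mir-10b was highest, lay between the extremes in mir-486 (21.37) and mir-206 (15.76). The fibroblast and smooth muscle list (6 of 6 compared, 0 called) summed to 15.39 to 15.87 in old and 14.62 to 15.68 in young libraries, lowest in young 1, where mir-10b was lowest, and highest in old 1, where mir-10b was 8.32. This sum is mostly mir-143, whose r with mir-10b over the 8 libraries was 0.18. Of the other 5 markers, mir-199a-1, mir-199a-2, mir-199b and mir-214 had an r of 0.74 to 0.75 with mir-10b, a description of 8 points that share their scaling. For mir-145a r was -0.03. Old 4 and young 4, which stood apart, were the highest libraries in mir-199a-1, mir-199a-2 and mir-199b, and r without them was not computed. The r of the mir-199 precursors and mir-214 are not separate observations. For example, mir-199a-1 was at 11.32, 11.64, 11.41 and 12.42 in old 1 to old 4 and mir-199a-2 ran in parallel, at 10.73, 11.04, 10.82 and 11.82. All 6 had a higher mean in old libraries, by 0.26 to 0.45 log2 units (median 0.29). The only endothelial marker listed, mir-126a, was at 3.32 to 4.34 in old and 2.96 to 5.11 in young libraries, highest in young 4 and old 4 (r = 0.62 with mir-10b). The other libraries lay at 2.96 to 3.68, and young 3, high in mir-10b, was at 3.07. The r of mir-126a without old 4 and young 4, the libraries that stood apart, was not computed. Of 4 blood markers 3, mir-142, mir-144 and mir-223, were listed at 0 in all libraries, and mir-451a was above 0 (0.89) only in young 1. The epithelial list summed to 4.91 to 8.04 in old and 5.89 to 7.44 in young libraries, nearly all of it mir-205, and was highest in old 4 and young 4; mir-200a and mir-429 were at 0 throughout. The neural list summed to 2.20 to 4.49 and 2.83 to 4.12. The part of other cell types in the mir-10 values was not tested, and in whole-cell samples fewer cells of a type and less RNA per cell cannot be told apart.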

How the data were processed

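Small RNA of myoblasts was measured in 8 libraries, prepared with a mirVana kit and Illumina protocols per the labels. BWA and mm10 are named in the submitters' processing notes; the counting rule and the placement of reads with several origins are not stated in the labels. The authors deposited normalized log2 values with 2 decimals, floored at 0, for 1181 precursors. Low values times precursor length (known for 1176) were whole multiples of a step in 100% of cases up to 12 reads (tolerance 0.1 of a read; 27.1% to 35.8% if 1 had been added before the log), which gave library sizes and recovered reads. Reads are not independent molecules.

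The comparison of 4 old and 4 young libraries used limma 3.58.1 (R 4.3.3, eBayes with trend) on the deposited values of the 359 precursors that reached a linear value of 10 in 4 or more libraries, with Benjamini-Hochberg adjustment over all 359 and a threshold of 0.05; the test was tested on simulated data. Exact permutation tests are two-sided. TMM factors (trimmed means of log ratios) were computed directly. Positions come from RefSeq and GENCODE M21 tables of GRCm38, the build of mm10. Named precursors were the members, 2 lists of seed relatives, marker lists and the 5 most alike of each member. Members and lists were chosen with earlier results of these data known. Alternatives were other filters, pseudocounts, scalings, no trend, a block for the mouse number and omission of each library in turn; leaving out both old 4 and young 4 was added after seeing the data. The labels give each library a mouse number and do not describe how the cells were isolated or cultured.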

Additional observations from a re-analysis of the deposited data

Results flagged for a closer look

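Within the old group, mir-196b stood at 12.32 in old 4, apart from the other 3 libraries at 11.14 to 11.19, a gap beyond Dixon's 95% critical value for 4 samples. After median-ratio scaling the gap was narrower, with old 4 at 11.98 and the others at 11.20 to 11.44. Dixon's limit was not applied to the scaled values. The endothelial marker mir-126a was at 4.34 in old 4, beyond the same limit relative to the other old libraries (3.32 to 3.46). These were 2 of 36 groups of 4 values looked at, and chance alone passes this limit in about 1 group in 20.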

How the results depend on the processing

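Of the 6 members 0, and of all precursors 0, were called under each of the 18 alternatives run. The replicate number as a block gave 0 of 359 calls as well (39 at an unadjusted p under 0.05, against 4 without it), and an old minus young difference between mir-10b and mir-10a of 2.21 by sign flips, a test that cannot pass 0.05 with 4 pairs. The labels do not say that a shared number pairs the mice. For that reason the main comparison had no block. Deviations from the group means correlated at 0.43, 0.66 and 0.58 for the pairs numbered 2, 3 and 4, each the best young match of its old library. The pair numbered 1 stood at -0.06 (old 1 matched young 4 best, young 1 matched old 3). Whether libraries of the same number share a batch was not tested. Within same-numbered pairs mir-196b minus mir-196a-2 was lower in old in 4 of 4 (mean -0.25, exact sign-flip permutation p = 0.125, the smallest that 4 pairs can give). The mir-196a-2 difference, -0.0025 in the main comparison, was 0.03 after median-ratio, 0.076 after TMM and 0.12 after quantile scaling and 0.02 without old 4 and young 4. Leaving out 1 library at a time, the differences ran from -2.10 to 0.0017 for mir-10a, -0.41 to 2.64 for mir-10b, -0.21 to 0.23 for mir-196a-1, -0.30 to 0.18 for mir-196a-2, -0.54 to 0.01 for mir-196b and -0.11 to 0.46 for mir-615. The within-library differences moved by age from 0.42 to 4.0 for mir-10b minus mir-10a, from -0.37 to -0.17 for mir-196b minus mir-196a-2 and from -0.12 to 2.81 for mir-10b minus mir-196b. The cause of these turns was not tested. Signs turned in mir-10a without young 2, in mir-10b, mir-615 and mir-10b minus mir-196b without young 1, in mir-196b without young 4, in mir-196a-1 without old 4 or young 3, and in mir-196a-2 without any 1 of old 1, old 2, old 3, young 1, young 2 and young 4. The fewest recovered reads behind a member's value were 55.9, and the part of depth in these turns was not tested.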
